A study of Mus musculus with 2 samples.

Results

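The resident macrophages of uninjured tibialis anterior muscle were taken as the cells that carried the C1q transcripts in a single-cell RNA library of that muscle. A cell barcode was a member when it held at least 200 genes and at most 20% mitochondrial unique molecular identifiers (UMIs, the tags that count original transcripts), at least 5 UMIs of C1qa, C1qb and C1qc together, at least 1 UMI of Csf1r, Cd68 and Adgre1 together, and no UMI of Cdh5 or Pdgfra. The rule found 66 members among the 5385 uninjured cells that passed the first pair of limits, a share of 1.23% with a 95% Clopper-Pearson interval of 0.949 to 1.56%. The uninjured library held 5581 barcodes and both libraries together 10070. The rule used measured transcripts, so the levels of its own genes are descriptions.

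Tissue-resident macrophages live in the connective tissue between muscle fibres and along vessels, where they take up dying cells, debris and macromolecules. C1q, the first component of the classical complement pathway, is made largely by such macrophages, and folate receptor beta (Folr2), the haemoglobin scavenger receptor Cd163, the hyaluronan receptor Lyve1 and the lectin Mgl2 are used in mice to mark them. Retnla, also called RELM-alpha or Fizz1, is a small secreted protein that mouse macrophages make in response to interleukin 4 and interleukin 13. In many mouse tissues, macrophages high in Lyve1, Folr2 and Cd163 and low in major histocompatibility complex (MHC) class II are told apart from macrophages high in MHC class II, which more often carry Ccr2, a receptor of monocytes.

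The study held 2 libraries of the tibialis anterior of C57B/6 mice aged 12 weeks and fed standard chow, made by digestion of the muscle with protease and the 10X 3' v2 chemistry. The injured library came from muscle injected with 1.2% barium chloride (written BaCl in the labels), a salt that makes muscle fibres degenerate, and taken 24 hours later, and the other library came from uninjured muscle. Since the labels of the uninjured sample name the same injection, they leave unclear whether that muscle received any, and they do not say how many animals stand behind a library. Each condition was 1 library, so no difference between conditions has a replicate check, no p-value was made, and all intervals cover counting error only.

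Depth and origin differed between the libraries in ways that touch every comparison of the members with injured cells. Median UMIs per barcode were 7282 in the injured library and 3237 in the uninjured one. The same rule found 947 injured cells (21.4% of 4421) with a median of 8055 UMIs, against a median of 3525.5 in the members (1952 to 14855). The members together held 252210 UMIs, so that 1 UMI was worth 3.96 CPM (UMIs scaled to a common library total), against 7960206 UMIs in the injured cells of the rule. Xist, which female cells transcribe, had 0 UMIs in the 947 injured cells and 248 UMIs in 60 of the 66 members, and 4 Y-linked genes together (Uty, Kdm5d, Eif2s3y and Ddx3y) had 1018 UMIs in 583 injured cells and 0 in the members. Sex and injury therefore cannot be told apart in these libraries. The libraries shared 33 barcodes, 0 of them members.

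At the C1q limit, a gap separated the members from the uninjured cells that met all other limits, but not from the whole library. Of the 85 uninjured cells that passed the quality limits with at least 5 C1q UMIs, 66 were members. A further 17 met the macrophage limit but held a Cdh5 or Pdgfra UMI, and their median was 30 C1q UMIs. Among uninjured cells that met all other limits, 72 had 0 C1q UMIs, 3 had 2 UMIs, 2 had 3 UMIs and 0 had 4 to 6 UMIs, and the members began with 1 cell each at 7, 8 and 9 UMIs. Their median was 56 C1q UMIs and the highest cell had 214. The injured cells showed no such gap, with 26 cells just outside the limit at 4 UMIs and 21 just inside it at 5 UMIs. All 7 markers given for the population were found in members. C1qa (65 of 66 cells) and C1qb (66 cells) were fixed by the rule and do not bear on the label. Of the other 5, Mgl2 (52 cells) and Retnla (48 cells) were found in most cells, and Folr2 (37 cells), Cd163 (26 cells) and Lyve1 (23 cells) in part of them. Of the 8 monocyte markers, Ly6c2, Chil3, Vcan and Hp had 0 UMIs, and the other 4, Ccr2 and S100a4 among them, had 409 UMIs in 58 members, so that the list summed to 1622 CPM in members and 303 CPM in other uninjured cells. Of the 9 dendritic cell markers, Xcr1, Clec9a and Ccr7 had 0 UMIs and the other 6 had 65 UMIs in 30 members, with a sum of 258 CPM in members and 168 CPM in other cells. The 6 neutrophil markers had 7 UMIs in 6 members, with S100a8, S100a9, Retnlg and Cxcr2 at 0. Their sum was 27.8 CPM in members and 1.35 CPM in other cells. The 4 B cell markers also had 7 UMIs in 6 members, or 27.8 CPM against 5.67 CPM. All 7 mast cell and all 6 T and NK cell markers had 0.

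Retnla was the transcript that set the members apart by sheer amount. With 6719 UMIs it was the second most abundant transcript in the members after the nuclear RNA Malat1, among genes that are neither mitochondrial nor ribosomal, and reached 26640.5 CPM (26007 to 27285) against 159.8 CPM in the 5319 other uninjured cells. Members held between 0 and 593 Retnla UMIs with a median of 67; 18 cells had 0 and 26 cells had 100 or more. The gene lies at chr16:48842551-48844461 on the plus strand (GRCm38, GENCODE vM21). Its promoter window is shown because Retnla was the most abundant of the members' marker transcripts and the one with the largest fold difference from the injured cells among the named genes. The window comes from RefSeq (GRCm38.p6, chr16:48842359-48842658, plus strand) and runs from 250 bases before the annotated start to 50 bases after it. Capitals mark GAGGAAG, the core bound by the macrophage factor PU.1, here on the opposite strand, and TTCNNNNGAA, the form bound by STAT dimers, which do not overlap:
Retnla promoter: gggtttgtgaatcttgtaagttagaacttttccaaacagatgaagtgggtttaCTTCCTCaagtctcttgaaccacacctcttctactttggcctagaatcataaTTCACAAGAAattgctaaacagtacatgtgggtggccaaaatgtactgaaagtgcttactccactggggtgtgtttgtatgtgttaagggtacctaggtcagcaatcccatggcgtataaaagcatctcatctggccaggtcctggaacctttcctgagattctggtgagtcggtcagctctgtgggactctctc
Searched on both strands, GAGGAAG was found in 13.6% and TTCNNNNGAA in 6.95% of the 32851 promoter windows of the same length, and both together in 0.986%. A match of letters is a description of the window and not a bound site.

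The lectin Cd209f gave the highest ratio of the named genes between the members and other uninjured cells, and its relative Cd209g ranked after it and Ms4a7. The Cd209 receptors bind sugars on microbes and cells, and their genes lie in a cluster on chromosome 8. Cd209f had 242 UMIs in members and 24 in the far larger rest of the library, or 959.5 against 1.12 CPM, a ratio of 859.8 with a 95% interval of 564 to 1368. Only 18 of 66 members held it, and 25.6% of its UMIs were in 1 cell. Cd209g had 436 CPM in members and 0.744 CPM in other cells, in 15 members, with 32.7% of its UMIs in 1 cell. Over the 66 members, Spearman's rho between Cd209f and Cd209g was 0.83 at 1500 UMIs per cell, a description across cells of 1 library. The promoter windows of this pair are shown because they share 1 identical run of 180 bases, in capitals:
Cd209f promoter: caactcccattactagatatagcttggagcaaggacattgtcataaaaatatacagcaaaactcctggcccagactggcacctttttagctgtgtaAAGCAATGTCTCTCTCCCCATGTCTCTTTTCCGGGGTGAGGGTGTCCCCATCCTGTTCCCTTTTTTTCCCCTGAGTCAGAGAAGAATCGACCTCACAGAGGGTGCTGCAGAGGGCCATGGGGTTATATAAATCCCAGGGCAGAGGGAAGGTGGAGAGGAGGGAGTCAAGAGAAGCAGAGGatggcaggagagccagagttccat
Cd209g promoter: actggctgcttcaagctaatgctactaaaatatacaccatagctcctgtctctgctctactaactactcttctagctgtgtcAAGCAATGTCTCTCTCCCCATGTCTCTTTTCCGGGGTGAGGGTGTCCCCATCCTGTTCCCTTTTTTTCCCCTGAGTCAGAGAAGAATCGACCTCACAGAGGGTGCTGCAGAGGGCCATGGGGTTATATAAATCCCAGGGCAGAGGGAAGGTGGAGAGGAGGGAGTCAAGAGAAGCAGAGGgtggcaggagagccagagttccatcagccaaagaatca
The first window lies at chr8:4105715-4106014 on the minus strand and the other at chr8:4134486-4134785 on the plus strand (RefSeq, GRCm38.p6), and the run covers bases -154 to 25 and -168 to 11 when the annotated start is counted as 0. GENCODE vM21 places the Cd209g gene at chr8:4134098-4137707, so its RefSeq window lies inside the GENCODE gene. No other pair among the 7 Cd209 promoters shared a run longer than 17 bases, and no other gene among the 32851 promoter windows held any 40-base stretch of it. In the last 500 bases of the transcripts, where this assay reads, no pair of Cd209 genes shared a 60-base window, so their counts are separable there. Clec10a and Mgl2 shared 82 such windows (4.70% and 5.71% of each), and Lyz1 and Lyz2 shared 52 (11.8% of each), so part of the counts of those pairs is uncertain.

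Other genes of high ratio included receptors, a tetraspan protein, a clotting factor subunit and a reductase. A gene was taken as measured when both sets of cells together held at least 20 of its UMIs. It was called higher or lower when the CPM differed at least 2-fold. Counts under 3 on the lower side were raised to 3, but never past equal rates. Sparse genes could thus be set to equal rates and counted as within 2-fold, and the median of 0 over all genes measured partly reflects this floor. Of 13445 genes measured, 1465 (10.9%) were higher in members than in other uninjured cells and 1906 (14.2%) lower. The counting interval also lay clear of equal rates for 948 (7.05%) and 1570 (11.7%) of them. The split was 1203 higher and 2500 lower with median of ratios scaling, which moved the median log2 ratio of the 629 genes with at least 50 UMIs on each side by 0.22. The rule chose cells of this same library, so these counts describe the contrast only. The tetraspan protein Ms4a7 had 357 CPM in members and 0.512 CPM in other cells, Folr2 1106 and 2.74 CPM, and the lipid-sensing receptor Trem2 258 and 0.744 CPM. The receptors for the complement peptides C5a and C3a followed, with ratios of 367 (223 to 629.9) for C5ar1 and 288 (181 to 475) for C3ar1. F13a1, the A subunit of clotting factor XIII, stood at 975 CPM in members and 4.23 CPM in other cells. The mannose receptor Mrc1 had 734 and 5.30 CPM, Cd163 had 238 and 2.09 CPM, and Cbr2, a carbonyl reductase, 459.9 and 3.16 CPM. Of all UMIs of the uninjured library, the members held 1.16%, but 91.0% of those of Cd209f, 89.1% of Ms4a7, 82.5% of Folr2 and 66.2% of Retnla. Lyve1 was shared more widely, with 14.6% of its UMIs in members. The other uninjured cells include 17 barcodes that met the C1q and macrophage limits but held a Cdh5 or Pdgfra UMI. These barcodes held 1264 Retnla and 46 Folr2 UMIs, which count on the side of the other cells.

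**Figure D1:**
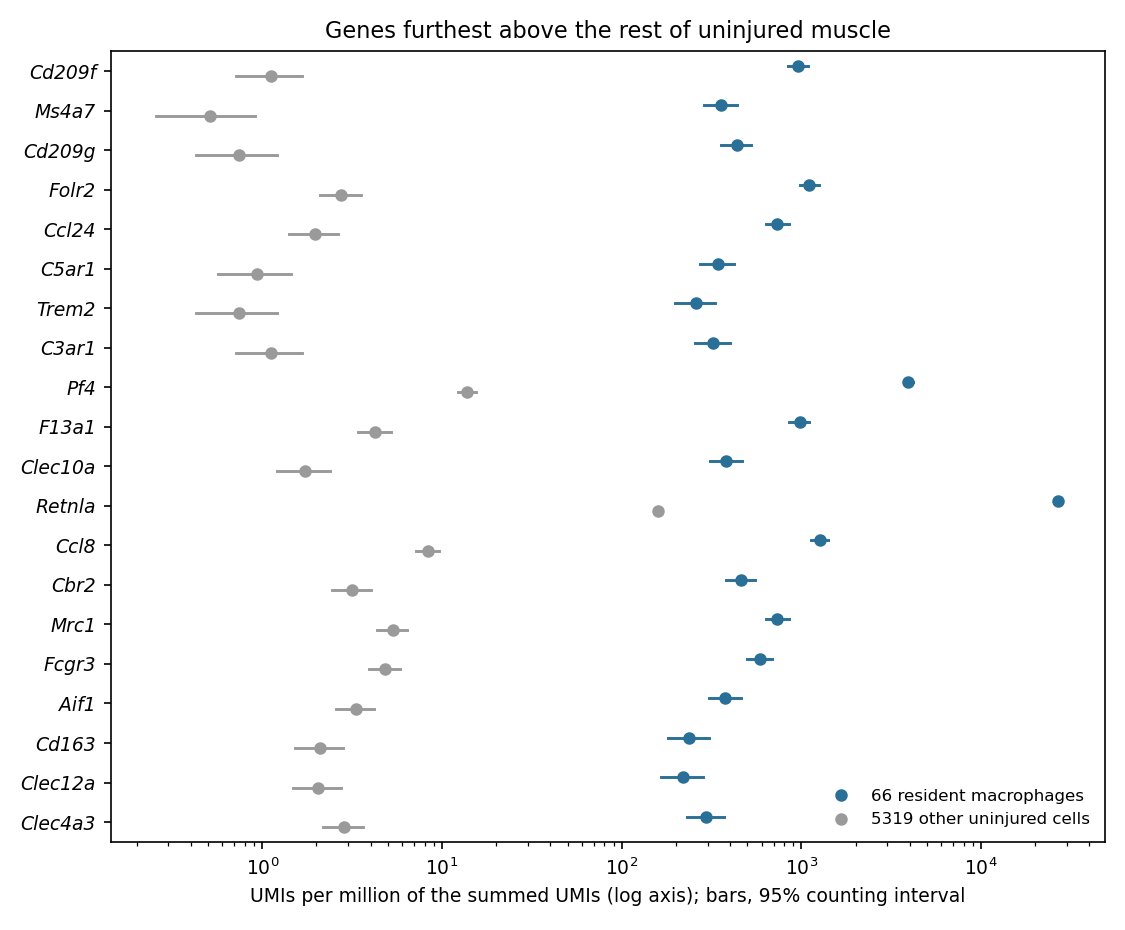
Summed UMIs as CPM in the 66 members (blue, drawn above) and in the 5319 other uninjured cells (grey), on a log axis, with 95% counting intervals. Retnla reached 26640.5 CPM in members against 159.8 CPM in other cells, and Cd209f had the highest ratio at 859.8.

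Receptors for complement, antibodies and sugars were almost all higher in the members. Of the complement list, 11 of 14 measured genes stood higher in members and 3 stood lower. The C1q genes of the rule are among the 11. The median log2 ratio of the list was 5.57, against 0 over all genes measured, where sparse genes were set to equal rates. The 629 genes with at least 50 UMIs on each side had a median of 0.22. The lower ones were Cd59a, Cd93 and C3, which other muscle cells carry. All 6 of 6 Fc receptor genes were higher (median 6.26), led by Fcgr1 with a ratio of 176 (94.1 to 342) and including the shared signalling chain Fcer1g at 2335 CPM against 40.1 CPM. C-type lectins gave 10 of 11 higher and 0 lower (median 6.50). Mgl2 had 785 CPM in members and 13.9 CPM in other cells, and Clec10a 381 and 1.72 CPM. Among scavenger and endocytic receptors, 6 of 11 were higher and 2 lower. Cd36, the fatty acid receptor that endothelial cells carry, was among the lower, at 341 CPM in members and 956 CPM in other cells. Timd4, a phosphatidylserine receptor used to mark long-lived resident macrophages in other mouse tissues, had only 12 UMIs in 9 members and 4 UMIs in the rest, too few to be counted as measured.

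MHC class II transcripts were among the most abundant of the members. All 9 of 9 measured genes of the list were higher than in other uninjured cells, with a median log2 ratio of 5.17. Cd74, the invariant chain that guides class II molecules, had 16593 CPM in members and 315 CPM in other cells, and the peptide-binding chains H2-Aa, H2-Ab1 and H2-Eb1 ranked among the 12 most abundant transcripts of the members. H2-Aa had 7442 and 139.5 CPM, and H2-Ab1 7418 and 153 CPM. Their master activator Ciita was sparse, with 8 UMIs in 5 members and 19 UMIs in other cells. MHC class I genes, which nearly all cells carry, stayed within 2-fold for 9 of 11 genes. The co-stimulation genes Cd86 (27 UMIs in members, ratio 54.8, 32.5 to 91.0) and Cd40 were higher. Cd274 had 1 of its 332 UMIs of the uninjured library in members, and Icosl 0 of 57. Both were counted as within 2-fold through the floor, which does not show a like level.

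Chemokines formed the other abundant secreted group. Of 16 measured, 14 were higher in members and 2 lower (median 4.81). Pf4, the platelet factor 4 chemokine, had 3937 CPM in members and 13.8 CPM in other cells, and was found in 58 of 66 members. Ccl6 had 2423 and 32.2 CPM, and Ccl9 1606 and 18.1 CPM, each in most members. Ccl24, an eosinophil attractant, had 734 and 1.95 CPM. Ccl8 reached 1265 CPM but came from 16 cells, with 22.9% of its UMIs in 1 of them, against 8.32 CPM in other cells. Cxcl2 likewise had 864 CPM from 19 members, against 17.3 CPM. The neutrophil attractant Cxcl1 ran the other way, with 2 UMIs in members (7.93 CPM) and 100.2 CPM in other cells, a ratio of 0.0792 (0.00958 to 0.286). Of the chemokine receptors, 6 of 8 were higher and 1 lower. Ccr2 was found in 37 members at 698 CPM against 13.2 CPM, and Cx3cr1, the fractalkine receptor, in 15 members at 155 CPM against 1.53 CPM.

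Secreted carriers, lysosomal enzymes and lineage factors completed the profile. Of the growth and trophic factors, 8 of 16 measured were higher and 3 lower. Apoe, which carries lipid, had 15194 CPM in members and 1192 CPM in other cells. The selenium carrier Sepp1 had 4702 and 579.8 CPM, and the growth factor Igf1 381 and 139 CPM. These genes were also found in many other cells, so their ratios were well below those of the receptors. Of the lysosomal list, 18 of 22 genes were higher, among them the protease Ctss (1816 CPM in members and 19.4 CPM in other cells) and lysozyme Lyz2 (12283 and 328 CPM). The protease Ctsl was lower, at 266 and 674 CPM, and Cst3, Ctsd and Cd63 stayed within 2-fold. The haem and iron list had 9 of 12 higher and 0 lower; the haem-degrading enzyme Hmox1 had 174 CPM in members and 25.4 CPM in other cells, and transferrin (Trf) 579 and 23.5 CPM. Among transcription factors of the lineage, 9 of 18 were higher and 2 lower, with Spi1, which encodes PU.1, at 408 and 8.37 CPM and Maf at 479.8 and 32.3 CPM. Id3, an inhibitor of basic helix-loop-helix factors that many muscle cells carry, had 63.4 and 1096 CPM.

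The members showed no raised set of stress or early response genes relative to the other cells of the library. None of the 15 immediate early genes was 2-fold higher and 3 (Jun, Ier2 and Egr1) were lower, while none of 11 heat shock genes was higher and 4 were lower. The near-identical copies Hspa1a and Hspa1b are uncertain as single genes. All 14 oxidative phosphorylation genes stayed within 2-fold. Of the interferon-stimulated genes, 2 were higher and 5 of 12 lower, Isg15 among them with 99.1 CPM in members and 295 CPM in other cells. The genes farthest below the rest of the library marked erythroid and endothelial cells: the haemoglobin genes Hba-a1, Hba-a2 and Hbb-bs, whose near-identical copies are uncertain as single genes, the endothelial factor Tcf15 (2 UMIs in members, 109-fold lower, 30.2 to 902) and the tight junction gene Cldn5 (3 UMIs, 69.7-fold lower, 23.8 to 338). Markers of the other lineages of muscle tissue summed to less in members than in other uninjured cells, but not all were at 0. The 6 muscle fibre markers had 153 UMIs spread over 46 members, or 607 CPM against 1070 CPM in other cells. The 4 erythroid markers had 87 UMIs in 45 members, or 345 CPM against 32567 CPM. The 7 endothelial markers summed to 24 UMIs, the 7 fibroblast markers to 177 with 69 in 1 cell, the 5 tenocyte markers to 97 with 90 in 1 cell, and the 5 glial markers to 112 with 81 in 1 cell. Cdh5 of the endothelial and Pdgfra of the fibroblast list were held at 0 by the rule itself. Without the tenocyte and glial cells, 1489 genes were higher and 1805 lower than in other cells.

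Within the members, Folr2 and MHC class II ran in opposite directions on the whole, with exceptions. Folr2 had 0 UMIs in 29 cells, 1 or 2 UMIs in 10 and more in 27, with 44 UMIs at most. The MHC class II genes of the list summed to between 0 and 619 UMIs with a median of 116.5, and 4 cells had 0. To compare cells at equal depth, each was thinned to 1500 UMIs, and 34 members then had a Folr2 UMI and 32 had none (median depths before thinning 3617.5 and 3421.5 UMIs). Spearman's rho over the 66 cells was -0.61 for Folr2 and H2-Ab1, -0.56 for Folr2 and Ccr2, and 0.86 for H2-Ab1 and Cd74. These values share cells, depth and 1 library and carry no test. Some single cells were high in both: the cell with the second highest Folr2 level, at 42.5 UMIs per 10000, held 431 class II UMIs per 10000, and another with 27.8 Folr2 UMIs held 642.

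Of 1586 genes measured in this split, 181 (11.4%) were at least 2-fold higher and 107 (6.75%) lower in the Folr2-detected members, with the counting interval also clear of equal rates for 8.39% and 5.55% of genes. The splits by Folr2 and by Retnla were added after values had been seen. All 6 of 6 class II genes were lower, with a median log2 ratio of -1.66 against 0.06 over all genes. H2-Ab1 had 3857 CPM in Folr2-detected and 11344 CPM in Folr2-undetected members, and Cd74 8938 and 25031 CPM. Ccr2 was 4.29-fold lower (2.95 to 6.37), with 272 and 1167 CPM. Class II was thus lower, not missing, in Folr2-detected cells: 28 of the 34 held H2-Ab1. Cd52, a surface glycoprotein of leukocytes, was lower as well, at 174 CPM in Folr2-detected and 1084 CPM in Folr2-undetected cells. The hyaluronan receptor Cd44 had 37.8 and 375 CPM. Ear2, a ribonuclease gene with close relatives, had 3 and 49 UMIs. Lyz1 was also lower (11 and 582 UMIs), with 47.3% of the UMIs of the Folr2-undetected members in 1 cell.

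Genes higher in the Folr2-detected members included some lectins, chemokines and trophic factors. Of the C-type lectins, 4 of 9 measured were higher and 0 lower, and of the complement list 2 of 10 were higher and 0 lower. Chemokines went both ways, with 3 of 12 higher (Pf4, Ccl7 and Ccl8) and 2 lower (Cxcl2 and Ccl12). Ccl8 led with 315 UMIs in 15 of 34 cells, against 4 UMIs in 1 of 32, a ratio of 71.4 (27.6 to 264). Lyve1 had 69 UMIs against 0, at least 20.9-fold higher with the empty side set to 3 UMIs, and Cd209d had 51 against 0, at least 15.4-fold higher. Cd209f and Cd209g were found almost only in Folr2-detected members, with 236 and 6 UMIs and 108 and 2 UMIs. The complement gene C4b had a ratio of 13.4 (5.50 to 42.6) and Fcna, a ficolin that binds bacterial sugars, 47 UMIs against 1 (ratio 42.6, 7.29 to 1719.6). Ltc4s, the enzyme that makes leukotriene C4, had 49 and 3 UMIs. Of the trophic factors, 5 of 7 measured were higher and 0 lower. Gas6, the ligand of the uptake receptors Axl and Mertk, had 824 CPM in Folr2-detected and 91.7 CPM in Folr2-undetected members, Sepp1 7562 and 1550.4 CPM, Apoe 23095 and 6485 CPM, and F13a1 1467 and 433 CPM. Pf4 had 6140.4 and 1509 CPM, and the lysosomal protease Ctsb 3804 and 1250.3 CPM. The receptor Csf1r, which the rule used, had 1489.7 and 508 CPM. Lyz2, Ccl6, Ccl9 and Trem2 stayed within 2-fold.

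Splits by Lyve1 and by Ccr2 gave the same opposition, but they divide the same 66 cells and are not separate support. Lyve1 had a UMI in 17 thinned members and none in 49, and 114 of 1586 genes (7.19%) were higher and 148 (9.33%) lower in the Lyve1-detected ones (interval clear of equal rates for 4.85% and 4.92%). All 6 of 6 class II genes were lower (median -1.43), Ccr2 had 188 CPM in Lyve1-detected and 891 CPM in Lyve1-undetected cells, and Ccl8 had 3695 and 344 CPM. Every Lyve1-detected cell was also Folr2-detected, so these splits overlap. Ccr2 had a UMI in 33 thinned members and none in 33, and 89 genes (5.61%) were higher and 121 (7.63%) lower in the Ccr2-detected ones (interval clear of equal rates for 4.48% and 5.42%). All 6 of 6 class II genes were higher there (median 1.23). Of the 33 Ccr2-detected cells, 24 had no Folr2 UMI after thinning, and 25 of the 33 Ccr2-undetected cells had one. The Ccr2 split thus overlaps with the Folr2 split as well. Ccl8 was 73.4-fold lower (31.1 to 228), with 5 UMIs in Ccr2-detected and 314 UMIs in Ccr2-undetected cells, and Cd209d, Ccl7 and C4b were lower too. The extracellular matrix gene Fn1 was higher, at 1288 and 198 CPM, with 39.4% of the UMIs of the Ccr2-detected cells in 1 of them. Mgp and Sparc also stood high in Ccr2-detected cells, but 97.3% and 60.9% of their UMIs there were in 1 cell.

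**Figure D2:**
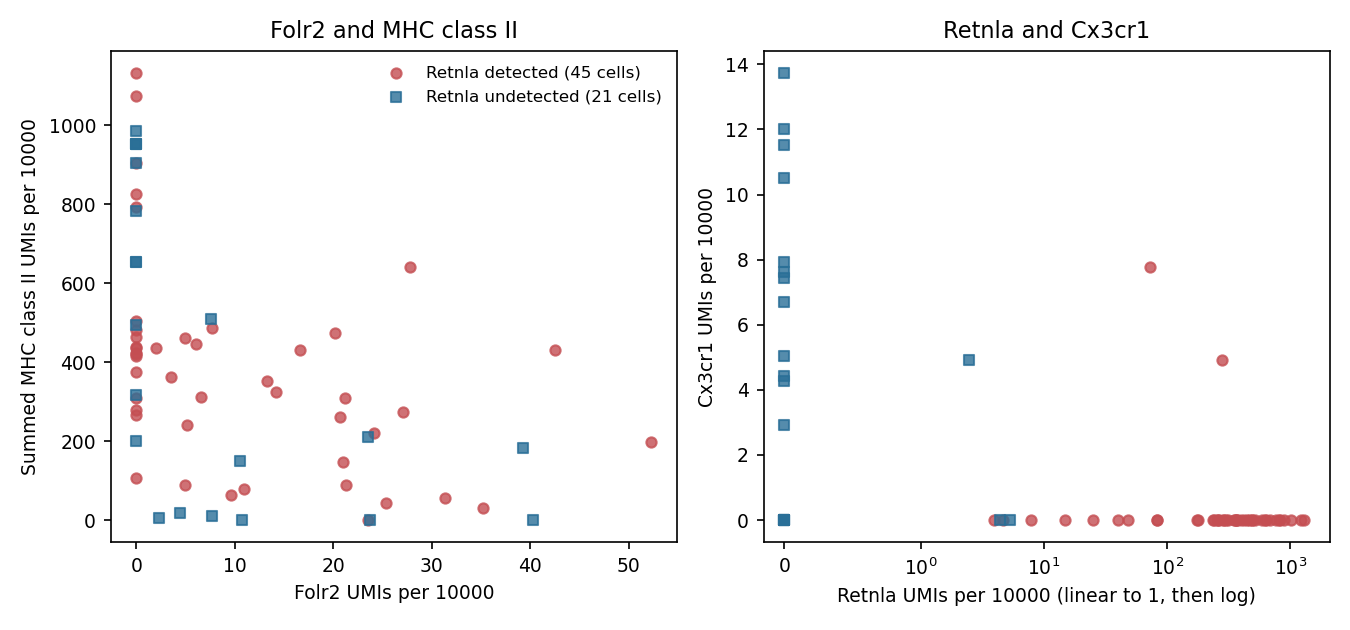
The 66 members as points, with Folr2 UMIs per 10000 against MHC class II UMIs per 10000 and Retnla UMIs per 10000 against Cx3cr1 UMIs per 10000. Red circles are the 45 cells with a Retnla UMI after thinning and blue squares the 21 without. Folr2 and MHC class II ran in opposite directions on the whole, with exceptions such as the cell at 42.5 Folr2 and 431 class II UMIs per 10000, and 3 of the 15 cells with a Cx3cr1 UMI also had Retnla.

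Retnla varied along another line. It was found on both sides of the Folr2 split, in 26 of 34 Folr2-detected members at 19011 CPM and in 22 of 32 Folr2-undetected members at 35050.1 CPM. Before thinning, 3 members had both Retnla and Cx3cr1, 45 had Retnla only, 12 had Cx3cr1 only and 6 had neither. In thinned cells, 45 members had Retnla and 21 did not (median depths before thinning 3548 and 3411 UMIs), and 146 of 1586 genes (9.21%) were higher and 113 (7.12%) lower in the Retnla-detected ones (interval clear of equal rates for 5.49% and 5.36%). Cx3cr1 had 27.6 CPM in 2 Retnla-detected members and 479.6 CPM in 13 Retnla-undetected members. It was 17.4-fold lower (6.77 to 57.0) where Retnla was detected. The other genes lower there included Trem2 (93.8 and 677 CPM), the tetraspanin Cd9 (88.2 and 649 CPM) and the chemokine Cxcl16 (60.7 and 437 CPM). Of the microglia-associated list, genes high in the macrophages of the mouse brain, 4 of 6 measured were lower with Retnla and 0 higher (median -2.38 against -0.02 over all genes); Cx3cr1, Gpr34 and P2ry6 were among the 4. MHC class II showed no such split, with 0 of 6 genes called in either direction, and H2-Ab1 at 6949 and 8619 CPM.

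The Retnla-detected members held nearly all of the Cd209 transcripts. Cd209f had 241 UMIs in them and 1 in Retnla-undetected members, Cd209g 109 and 1, and Cd209d 51 and 0. Clec10a had 507 and 56.4 CPM, and Mgl2 943 and 381 CPM. Ear2 had 52 and 0 UMIs, at least 6.78-fold higher. Ccl6 stood at 3094 and 705 CPM. Mgp, Col1a2 and Sparc were higher as well, but 95.8%, 63.8% and 58.8% of their UMIs in Retnla-detected members were in 1 cell. Apoe, Pf4 and Folr2 stayed within 2-fold between the sides, so the genes of the Folr2 axis and those of the Retnla axis overlapped in the Cd209 lectins and Ccl8 and differed in MHC class II and Cx3cr1.

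The injured library shows what cells meeting the same rule held 24 hours after barium chloride. In a comparison of such sums, a change within resident cells, their loss and the arrival of other C1q cells cannot be told apart. The rule took 947 cells from injured muscle, against the 66 members. Of 9052 genes measured, 887 (9.8%) were at least 2-fold higher and 1900 (21%) lower in the injured C1q cells than in the members, with the interval clear of equal rates for 8.09% and 12.8%. The median log2 ratio over all genes was -0.04. The balance of higher and lower calls depends on depth. The floor of 3 UMIs stood at 11.9 CPM in members and 0.377 CPM in injured C1q cells. With a gene minimum of 5 or 50 UMIs, 2981 or 1164 genes were lower, and 887 were higher each time.

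Retnla was far lower in the injured C1q cells. It had 148 UMIs in 9 of 947 injured cells, 56.8% of them in 1 cell, and 6719 UMIs in 48 of 66 members. Its level was 18.6 CPM in injured C1q cells and 26640.5 CPM in members, 1433-fold lower with a 95% interval of 1217 to 1698. At 1500 UMIs per cell, 0.422% of injured C1q cells and 68.2% of members had a Retnla UMI, and 0.950% and 72.7% before thinning. Endothelial cells, defined by a Cdh5 UMI and no C1q UMI, gave the level of free RNA: 0 of 601 injured ones, which allows a share of up to 0.499%, and 2.77% of 3244 uninjured ones (median depths 6770 and 3133.5 UMIs). Before thinning these shares were 0.666% and 6.26%. At this depth the share in injured C1q cells was not distinguishable from that of the injured endothelial cells.

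The sugar-binding receptors followed. Cd209f had 3.39 CPM in injured C1q cells and 959.5 CPM in members (283-fold lower, 189.7 to 438). Cd209g had 3 UMIs against 110 (1157-fold lower, 386 to 5698), and Cd209d 3 against 51 (537-fold lower, 174 to 2688). Both of these folds rest on 3 injured UMIs, and their intervals are wide. Mgl2 had 4.52 CPM in injured C1q cells and 785 CPM in members, and Clec10a 15.6 and 381 CPM. The lectins that sense fungi, mycobacteria and dying cells ran the other way: Clec4e had 5546 UMIs in injured cells and 0 in members (at least 58.6-fold higher), Clec4d 5223 and 0 (at least 55.2-fold), and Clec4n 299 and 27.8 CPM. Over the lectin list, 3 of 13 measured genes were higher and 7 lower (median -1.37).

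Among the markers of the uptake receptors, Folr2 had 101 CPM in injured C1q cells and 1106 CPM in members (11.0-fold lower, 9.56 to 12.6), Lyve1 15.6 and 274 CPM, and Cd163 22.6 and 238 CPM. At 1500 UMIs per cell, Folr2 was found in 8.76% of injured C1q cells and 51.5% of members (29.1% and 56.1% before thinning), against 0.333% and 0.0925% of endothelial cells. Lyve1 was found in 0.950% and 25.8% (2.43% and 34.8% before thinning), against 0.998% and 0.832% of endothelial cells. Lymphatic endothelial cells can make Lyve1 themselves, so these endothelial shares do not give a level of free RNA for it. Cd163 was found in 1.90% and 22.7% (7.81% and 39.4% before thinning) and Mgl2 in 0.317% and 63.6% (1.37% and 78.8%). Their endothelial shares were at most 0.308% in either library. Mrc1 differed less, at 328 CPM in injured C1q cells and 734 CPM in members. The scavenger receptor Msr1, which takes up modified lipoproteins, was higher at 355 and 35.7 CPM. Timd4 had 5 and 12 UMIs, too few to be measured.

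**Figure D3:**
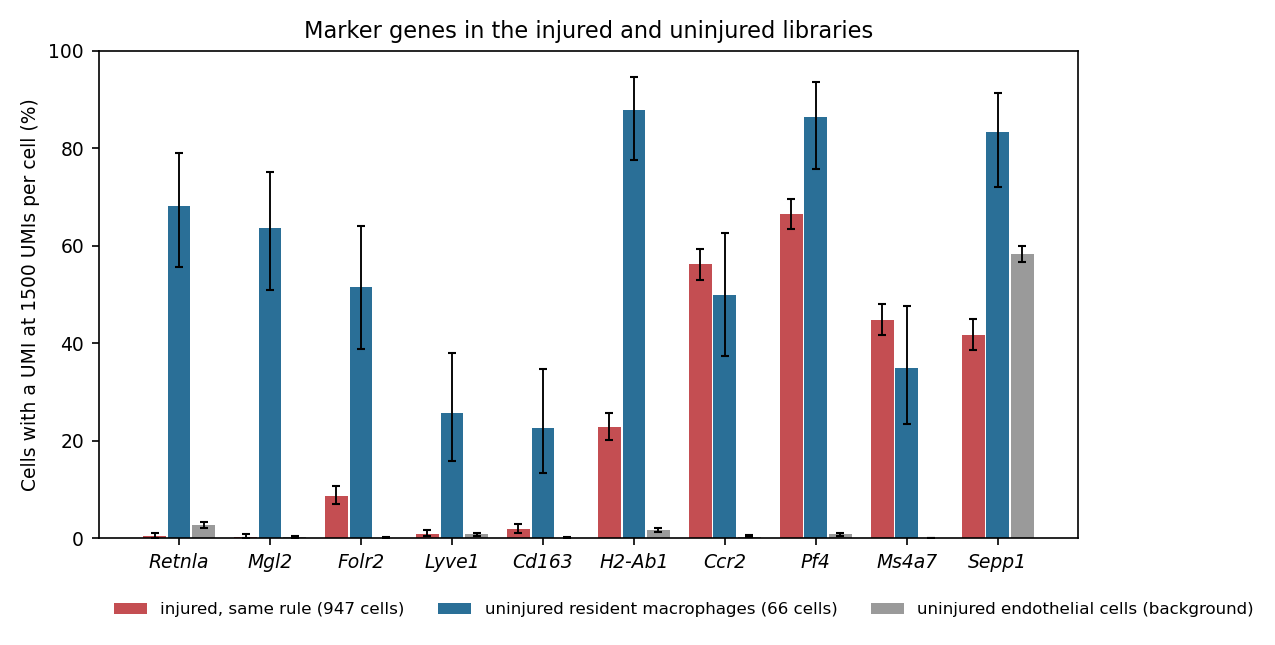
Share of cells with a UMI of each marker after thinning every cell to 1500 UMIs, with 95% Clopper-Pearson intervals. Bars show the 947 injured C1q cells, the 66 members and the 3244 uninjured endothelial cells. The endothelial cells give the level of free RNA, except for genes that they can make themselves, such as Lyve1. Retnla was found in 0.422% of injured C1q cells and 68.2% of members, while Pf4 was found in 66.5% and 86.4%.

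Antigen presentation genes were lower in injured C1q cells. All 7 of 7 measured class II genes were lower in injured C1q cells (median -2.89 against -0.04 over all genes), and 9 of 11 class I genes were lower with none higher (median -1.30). H2-Ab1 had 904 CPM in injured C1q cells and 7418 CPM in members (8.21-fold lower, 7.80 to 8.64), H2-Eb1 586 and 6237 CPM, and Cd74 2415 and 16593 CPM. The class I heavy chain H2-K1 had 362 and 1281 CPM. H2-Ab1 was found in 22.9% of injured C1q cells and 87.9% of members at 1500 UMIs (36.1% and 90.9% before thinning), against 4.16% and 1.63% of endothelial cells, so a minority of injured C1q cells carried it. The microglia-associated list gave 8 of 10 lower and 0 higher (median -2.09), with Gpr34 at 1.76 CPM in injured C1q cells and 151 CPM in members and Cx3cr1 at 14.1 and 155 CPM.

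Several complement, trophic and lipid-carrying transcripts were lower as well. Of the complement list, 8 of 14 were lower and 2 higher, the C1q genes of the rule among the 8. The median log2 ratio of the list was -1.50, and -0.58 without cells that held 3 or more UMIs of other cell types. C4b had 4.65 CPM in injured C1q cells and 313 CPM in members (67.4-fold lower, 45.1 to 102). Of the growth and trophic factors, 5 of 17 were higher and 8 lower. Igf1, which supports the growth of muscle precursors, had 32.8 and 381 CPM, Gas6 35.8 and 476 CPM, Sepp1 479.6 and 4702 CPM, and Apoe 2954 and 15194 CPM. Those higher included the cytokine Osm (2951 UMIs in injured C1q cells and 2 in members, ratio 46.7, 12.9 to 386) and Gdf15 (329 and 0 UMIs, at least 3.47-fold). The phospholipid transfer protein Pltp was 31.6-fold lower (26.3 to 37.8), the prostaglandin-degrading enzyme Hpgd 43.1-fold (28.3 to 66.2) and the leukotriene synthase Ltc4s 31.6-fold (21.1 to 47.3). Fxyd2, a regulator of the sodium pump, had 5.15 and 492 CPM. Lyz1 and Mgp were 66.6-fold and 62.9-fold lower, but 46.4% and 95.2% of the members' UMIs were in 1 cell each. Without the pair of members richest in tenocyte and glial markers their log2 ratios were -5.30 and -1.54, against -6.06 and -5.98 with them.

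The transcripts higher in injured C1q cells included inflammatory mediators, neutrophil attractants and glycolytic enzymes. Cxcl1 had 15619 UMIs in injured C1q cells and 2 in members, a ratio of 247 (68.5 to 2043). Arginase 1 (Arg1) had 6666 UMIs in 513 injured cells and 0 in members, at least 70.4-fold higher, and the chitinase-like gene Chil3 had 5797 UMIs and 0, at least 61.2-fold higher. Arg1, Chil3 and Retnla are commonly grouped as genes of alternative activation in mice, and here the first pair stood with the injured cells and Retnla with the members. Over that list, 4 of 11 measured genes were higher and 4 lower. Of the inflammatory mediators, 11 of 15 were higher and 0 lower (median 2.83). Interleukin 1 beta (Il1b) had 3279 CPM in injured C1q cells and 59.5 CPM in members, where 2 cells held its 15 UMIs, and tumour necrosis factor (Tnf) had 479.6 and 67.4 CPM. Spp1 (osteopontin) had 2786 and 55.5 CPM, Thbs1 (thrombospondin 1) 893 and 19.8 CPM, and the fatty acid carrier Fabp5 1432 and 59.5 CPM. The log2 ratio of Spp1 was 5.65 with all members and 6.99 without the same pair of cells rich in tenocyte and glial markers. The prostaglandin synthase Ptgs2, the receptor antagonist Il1rn and the lipid droplet protein Hilpda were also among the 15 genes of highest ratio.

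Chemokines differed by kind. Of 17 measured, 11 were higher and 2 lower (median 1.70). The monocyte attractants Ccl2 and Ccl7 had 6336 and 7089 CPM in injured C1q cells, against 508 and 440.1 CPM in members, and Cxcl2 had 16498 and 864 CPM. Ccl8 and Ccl24 were the lower pair, at 292 and 201 CPM in injured C1q cells and 1265 and 734 CPM in members. Pf4 stayed within 2-fold, at 5748 and 3937 CPM, as did Lyz2, Trem2, Ms4a7, Spi1 and Ccr2. Part of what ranks highest in members against the rest of uninjured muscle was thus also present in injured C1q cells at a like level, with Ms4a7 at 539 and 357 CPM. Glycolysis genes gave 9 of 15 higher and 0 lower (median 1.58), with Pkm at 1168 CPM in injured C1q cells and 242 CPM in members. Hmox1 had 588 and 174 CPM and the ferritin light chain Ftl1 25379 and 9861 CPM, while transferrin stood at 51.9 and 579 CPM. The lysosomal list was mostly within 2-fold (15 of 22), with Ctsd and Ctsl higher at 3253 and 1289.8 CPM in injured C1q cells and 547 and 266 CPM in members. The transcription factors Klf2 (58.3 and 559 CPM) and Irf4 (27 and 13 UMIs, 15.2-fold lower, 7.20 to 30.5) were lower, Spi1 was within 2-fold, and Cebpb was higher (96.6 and 39.6 CPM).

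**Figure D4:**
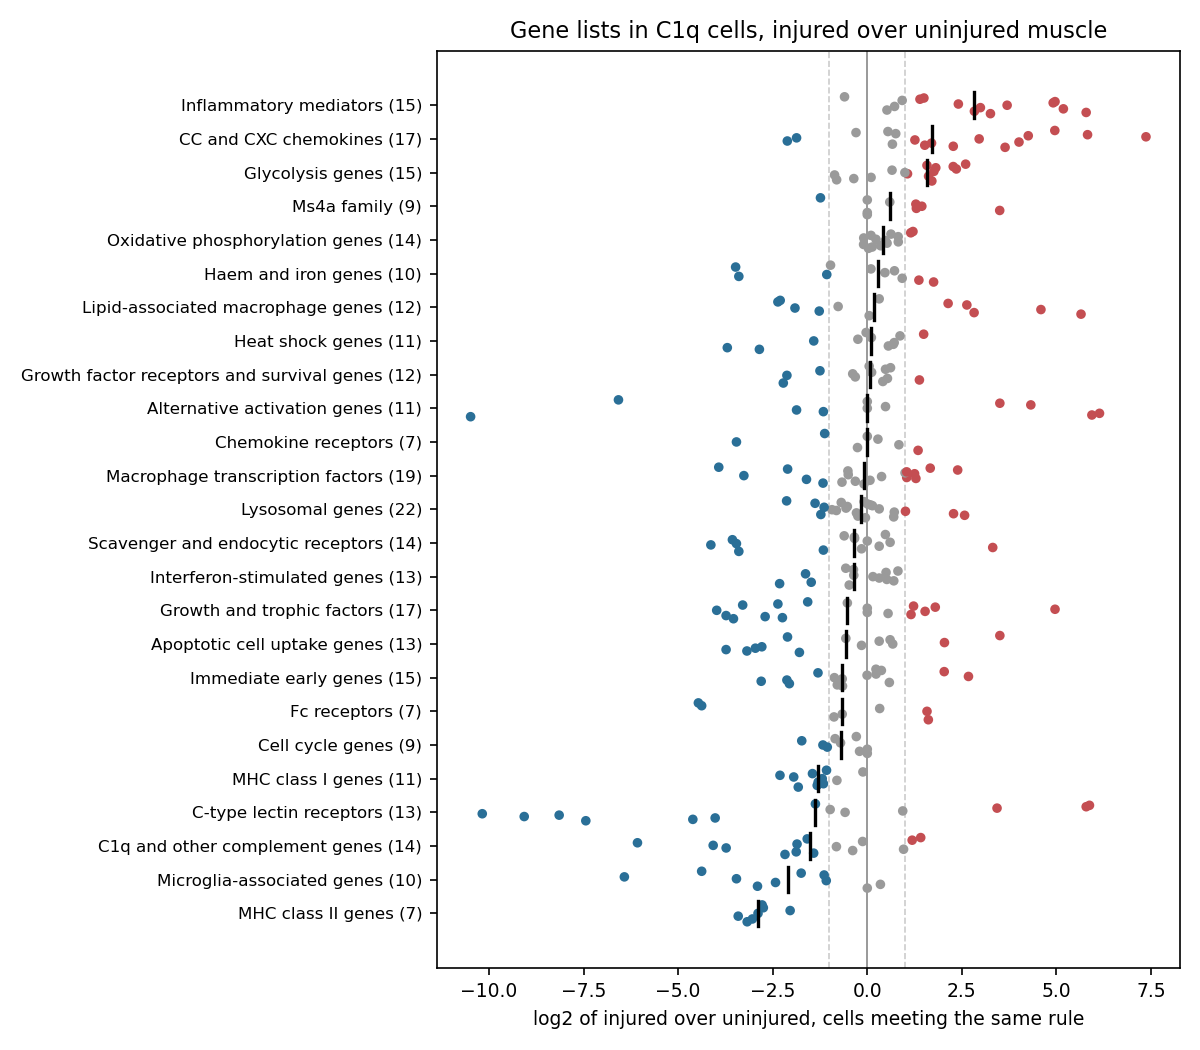
Median log2 ratio of injured C1q cells over members for each gene list, with the genes of the list as points (red at least 2-fold higher, blue at least 2-fold lower, grey within 2-fold; the black tick is the median and the number in brackets the genes measured). MHC class II had a median of -2.89 and the inflammatory mediators one of 2.83, against -0.04 over all genes measured.

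Markers of other cell types differed in this contrast. The 8 monocyte markers, all detected in injured C1q cells and 4 of them in members, summed to 3614 CPM in injured C1q cells and 1622 CPM in members, where Ly6c2, Chil3, Vcan and Hp were at 0. The 6 neutrophil markers, all detected in injured C1q cells and 2 in members, summed to 357 CPM and 27.8 CPM, with S100a8 and S100a9 at 0 in members. The 4 erythroid markers summed to 898 CPM and 345 CPM, with 2743 UMIs in 1 injured cell. Mast cell and T and NK cell markers had 5 and 45 UMIs in injured C1q cells and 0 in members. The other lists were lower in injured C1q cells than in members. Fibroblast markers summed to 37.9 CPM in injured C1q cells and 702 CPM in members, glial markers to 35.9 and 444 CPM, and tenocyte markers to 20.5 and 385 CPM, with much of the members' sum in 1 cell each, as given above. Muscle fibre markers summed to 89.6 CPM in injured C1q cells and 607 CPM in members, dendritic cell markers to 34.8 and 258 CPM, and endothelial markers to 18.0 and 95.2 CPM. Smooth muscle, satellite and B cell markers were at most 11.9 CPM in injured C1q cells and 31.7 CPM in members. Their part in the differences was not tested. Leaving out cells with 3 or more UMIs of another cell type gave 774 genes higher and 1861 lower.

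A few injured cells carried several of the resident markers. After thinning, 15 of 947 injured C1q cells (1.58%, 0.889 to 2.60%) and 21 of 66 members (31.8%, 20.9 to 44.4%) had a UMI of at least 2 of Folr2, Cd163 and Lyve1. They made up 0.339% of all cells passing the quality limits in the injured library and 0.390% in the uninjured one. These cells were compared after values had been seen, and each side rests on few cells. Of 1448 genes measured, 306 (21.1%) were higher and 149 (10.3%) lower in the injured ones (interval clear of equal rates for 16.1% and 9.19%). Retnla had 0 UMIs in the 15 injured cells and 1508 UMIs in 18 of the 21 uninjured ones, at least 759-fold lower with the empty side set to 3 UMIs. All 5 of 5 measured class II genes were lower (median -4.59), H2-Ab1 with 137 CPM in the injured and 3299 CPM in the uninjured cells. Mgl2 had 129 and 974 CPM, all 16 injured UMIs in 1 cell. Apoe had 3869.5 and 23273 CPM. Cxcl2 was higher at 5087 and 292 CPM, Cxcl1 had 69 and 0 UMIs (at least 15.2-fold), Ccl7 4934 and 889 CPM, and Hmox1 1233 and 170.4 CPM. Mrc1 (830.3 and 1047 CPM), Ccl8 (5820.4 and 3737 CPM) and Lyz2 stayed within 2-fold, and Pf4 was higher at 13342 and 6219.8 CPM. Retnla and MHC class II were thus lower on the injured side in this comparison too. Carrying these markers does not show that the 15 injured cells were resident, and their origin was not tested.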

How the data were processed

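The deposited matrices hold raw UMI counts per gene and barcode, 1 library per condition. The authors counted UMIs with Cell Ranger 2.1.1 on the mm10 build, per the submitters' processing notes. Neither the annotation release nor the threshold that selected barcodes was given in the sources used here. Reads were 3' tags, so levels were not divided by length.

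From the counts, barcodes with at least 200 genes and at most 20% mitochondrial UMIs were kept. For each set of cells, the UMIs of a gene were added up and scaled to the set's total as CPM. CPM values have exact Poisson intervals, ratios exact conditional binomial intervals and shares Clopper-Pearson intervals, all at 95% and for counting error only. A gene was measured with at least 20 summed UMIs and called by size at 2-fold. Counts under 3 on the lower side were raised to 3, but never past equal rates. For shares, splits and correlations each cell was thinned to 1500 UMIs, which left out no cell of the rule. A gene list was described by its counts and its median.

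The members and lists were chosen with earlier results of these data known. Named genes were the 20 of highest and 5 of lowest ratio against other uninjured cells, and the 15 of highest and 15 of lowest ratio against injured cells. These had at least 50 UMIs on the higher side and a UMI in at least 20% of its cells. In the splits they were the 10 of highest and 10 of lowest ratio with at least 20 UMIs. Genes of the lists and marker lists and the 20 most abundant transcripts could be named as well, while sex-linked, mitochondrial and rule genes were not ranked. Cd81 and a few others that passed are not described.

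Scrublet, run in scanpy 1.11.5, marked 1 barcode per library (0.0223% of injured and 0.0179% of uninjured barcodes), so its automatic call did not work. Doublets were kept, and an alternative left out the 161 injured and 249 uninjured barcodes of highest score. The calculations used Python 3.11.15, numpy 2.4.6, scipy 1.17.1, pandas 2.3.3, scikit-learn 1.9.0 and matplotlib 3.10.9, and were tested on simulated data. Gene positions came from GENCODE vM21 (GRCm38) and promoter windows from RefSeq (GRCm38.p6).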

Additional observations from a re-analysis of the deposited data

Results flagged for a closer look

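Some barcodes met the C1q and macrophage limits but held a Cdh5 or Pdgfra UMI, and so were not members: 56 in the injured library and 17 in the uninjured one. The 56 lay outside the comparisons of C1q cells. The 17 were counted among the 5319 other uninjured cells, so their UMIs are part of the CPM given for those cells. They stood out as a macrophage signal in cells that the rule leaves out. The 17 uninjured barcodes, with a median of 3756 UMIs, held 1264 Retnla UMIs in 12 of them, or 13715 CPM (12970 to 14493). They also held 499 CPM of Folr2, 586 CPM of Mgl2 and 12185 CPM of Cd74. The 56 injured barcodes held 0 Retnla UMIs, which allows up to 5.01 CPM by the upper end of the counting interval, and 875 CPM of Cd74. The rule chose all of these barcodes by measured UMIs, and whether they are single cells was not tested.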

How the results depend on the processing

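No value past 2-fold changed direction under the alternatives run, but some list medians within 2-fold changed sign, such as the lipid-associated list against other uninjured cells (0.62, and -0.24 without the pair of members rich in tenocyte and glial markers). Of 66 counts, 58 stayed within 1.5 times the main value, as did 583 of 603 list medians on the linear scale, and 594 of 660 single-gene ratios and 13 of 15 marker shares stayed within their counting intervals. Keeping cells with at least the lowest total of the injured library left 38 members and put the transcription factor list at 0.41 and the microglia-associated list at 3.11 against other uninjured cells (main 1.42 and 3.90). Thinning to 1500 UMIs left 999 genes lower than in other uninjured cells, and 556 higher and 830 lower in injured C1q cells, and put MHC class II at 5.95 and the microglia-associated list at 2.87 against other uninjured cells; fewer UMIs were counted there. A gene minimum of 5 UMIs gave 2981 genes lower in injured C1q cells, a lectin median of -2.70 there, and medians of 3.57 for scavenger receptors and 2.98 for microglia-associated genes against other uninjured cells, while a minimum of 50 gave 1164 genes lower and 2.98. Calls whose interval also lay clear of equal rates numbered 948 higher in members and 1163 lower in injured C1q cells. Without cells holding 3 or more UMIs of other cell types, the complement median in injured C1q cells was -0.58 (main -1.50); the cause was not tested. Before thinning, Cd163 was found in 39.4% and Mgl2 in 78.8% of members. No paired analysis was possible because each condition is 1 library. The members' 252210 UMIs limit sparse genes such as Timd4, and no replicate bears on any difference between the libraries.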

Other observations

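Of the Ms4a family of tetraspan proteins, 6 of 7 measured genes were at least 2-fold higher in members than in other uninjured cells and 0 lower (median log2 ratio 5.41 against 0 over all genes), and 4 of 9 were higher and 1 lower in injured C1q cells than in members. Genes associated with lipid-laden macrophages gave 6 of 12 higher and 5 lower in members, and 5 higher and 4 lower of 12 in injured C1q cells. In that list Gpnmb, a membrane glycoprotein of lipid-laden macrophages, had 670 UMIs in injured C1q cells and 0 in members (at least 7.08-fold higher), and the lipid droplet coat gene Plin2 had 697 and 159 CPM.

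Genes for the uptake of apoptotic cells were mixed in members, with 3 of 14 higher and 4 lower than in other uninjured cells, and 2 of 13 were higher and 6 lower in injured C1q cells. The proliferation genes Mki67 and Top2a had 0 UMIs in members. The library held only 43 and 96 of their UMIs, and members held 1.16% of all UMIs, so a count of 0 is uninformative. The cell cycle list had 2 of 16 genes higher and 1 lower than in other uninjured cells. Several of the others, such as Cdk1 and Ccnb1, were also at 0 in members and counted as within 2-fold through the floor. The higher ones, Mcm3 and Mcm5, had 6 and 3 UMIs in members, and for 0 of them was the interval clear of equal rates. Of the interferon-stimulated genes, 0 were higher and 3 of 13 lower in injured C1q cells. Of the Fc receptors, 2 were higher and 2 of 7 lower there. Over all genes measured, 10.9% were higher and 14.2% lower in members than in other uninjured cells. In injured C1q cells, 9.8% were higher and 21% lower than in members, so counts near these shares do not set a list apart. The number of genes lower in injured C1q cells moved with the gene minimum, as given above.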
